A study of Macaca mulatta with 28 samples.

Results

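The lighter drinkers of an older and a younger cohort of male rhesus macaques were compared in brain tissue that contained the CeA, the amygdala's central nucleus. The set holds 11 of the 28 animals of the series and is defined by their labels: the low drinkers (LD) and binge drinkers (BD) of cohort 4 and of cohort 7b. Cohort 4 gave 7 animals (4 LD and 3 BD) with a cohort average age of 8.24 years at the start of ethanol induction and 9.98 years after the last period of open access. Cohort 7b gave 4 animals (3 LD and 1 BD) of 5.69 and 7.18 years on average. All had learned to drink ethanol and had then chosen their intake for over a year, so neither cohort is a control without ethanol. The labels give the average age of a cohort and no age of a single animal. Age, intake and everything else that separates the cohorts therefore cannot be told apart. Each animal gave 1 library of total RNA from a frozen tissue block, located by landmarks next to the optic tract and the globus pallidus. The block is larger than the nucleus.

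The CeA is the main output nucleus of the amygdala. Its neurons are mostly GABAergic, many release peptides such as corticotropin-releasing hormone, enkephalin, dynorphin or somatostatin, and they are known for their part in fear, stress and ethanol drinking. Several tissues with other cells adjoin it: the striatum with medium spiny neurons, the basolateral amygdala and cortex with glutamatergic neurons, and the basal forebrain with large cholinergic neurons. Cholinergic neurons make acetylcholine with choline acetyltransferase (CHAT), load it into vesicles with SLC18A3 and take choline back up with SLC5A7. In bulk tissue, fewer cells of a type and less RNA per cell cannot be told apart.

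Depth ran from 1910514 to 25928489 reads over gene exons in the 11 libraries. The mean was 14270768 ± 8899981 in cohort 4 (SD, n = 7) and 17012276 ± 3944934 in cohort 7b (SD, n = 4), which did not differ beyond the spread between animals (exact permutation test, two-sided p = 0.582; the smallest p possible over 330 splits is 0.00303). Cohort 4 held both shallow libraries, BD replicate 1 with 1910514 reads and LD replicate 1 with 6474295 reads. In BD replicate 1, 3 reads amount to 24.1 normalized reads, so a listed value of 0 there allows a level up to that; in the other 10 libraries 3 reads amount to 1.82 to 6.73. Values are normalized reads, meaning reads multiplied by 1 upper-quartile factor per library. CeA peptides were present in all 11 libraries: PENK ranged from 1293 to 32856, SST from 928 to 3897 and CRH from 16 to 81.0.

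No gene passed the test between the cohorts. Of 15521 genes, 12785 reached a value of 10 in at least 4 libraries and were tested with limma, with drinking category as a term; 0 genes (0%) had an adjusted p under 0.05, with 0.986 as the smallest adjusted p. Without adjustment 331 genes had a p under 0.05 (2.59%), fewer than the 5% that the threshold itself allows. Of these, 245 were higher in cohort 7b (1.92%) and 86 were lower (0.673%). In 40 genes (0.313%) the 4 values of cohort 7b did not overlap the 7 of cohort 4, 22 of them higher and 18 lower. The median log2 fold change over all genes tested was -0.0035. Precision differed among genes: in 84.5% the 95% interval lay within 2-fold in either direction, and a larger difference in the remaining genes was not excluded by these animals. edgeR and DESeq2 on the recovered reads also called 0 genes, with 363 and 438 genes at an unadjusted p under 0.05 and lowest adjusted p of 0.957 and 0.272.

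The repeat without the shallow libraries compared 5 animals of cohort 4 with 4 of cohort 7b. It tested 12696 genes and again called 0, with a lowest limma adjusted p of 0.672. The genes at an unadjusted p under 0.05 numbered 695 (5.47%), of which 206 were among the 331 above, and 163 genes (1.28%) did not overlap. With 5 instead of 7 animals of cohort 4, values separate by chance more often, so 1.28% cannot be compared directly with the 0.313% above. The count of 331 also depended on single deeper libraries: it was 718 without cohort 4 LD replicate 2, 174 without cohort 4 LD replicate 3, 164 without cohort 7b LD replicate 1 and 144 without cohort 7b BD replicate 1. The last is the only BD animal of cohort 7b, so without it the fitted difference rests on the LD animals. Leaving out the shallow LD replicate 1 of cohort 4 alone gave 869.

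**Figure D1:**
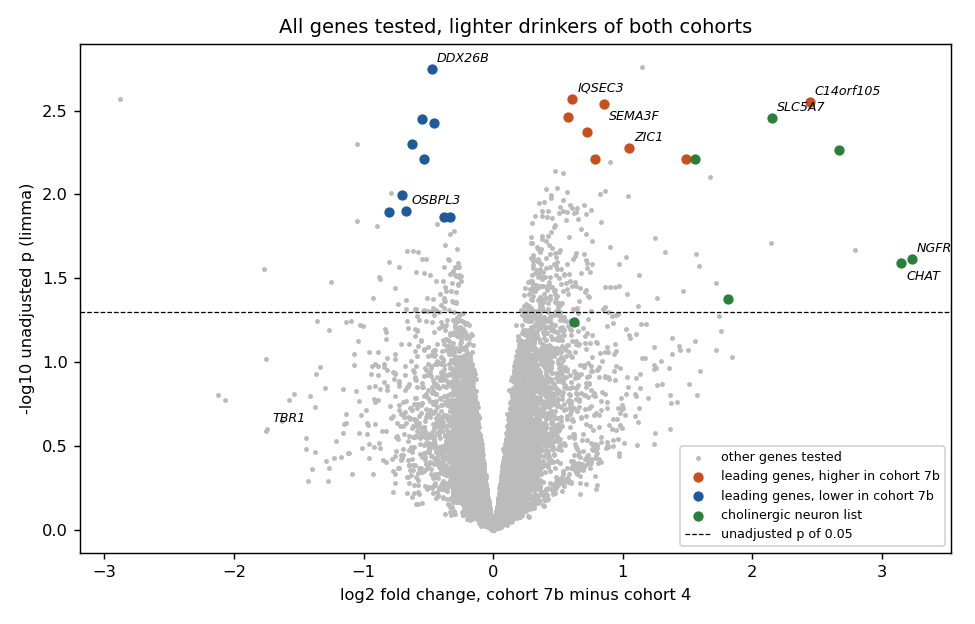
Each point is 1 of the 12785 genes tested, with the log2 fold change of cohort 7b minus cohort 4 on the x axis and -log10 of the unadjusted limma p on the y axis; the dashed line marks the unadjusted threshold of 0.05. Green points are 7 genes of the cholinergic list, all to the right of 0, and orange and blue points are the leading genes in each direction; 0 genes passed after adjustment.

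The cholinergic genes stood at higher values in cohort 7b. Of 9 listed genes 8 were tested, and all 8 were above 0, 7 of them at an unadjusted p under 0.05, where 1.92% of all genes tested were higher at that p. Their median log2 fold change was 2.41 (5.32-fold), beside -0.0035 over all genes. None passed after adjustment. CHAT measured 201, 78.8, 333 and 285 normalized reads in the 4 animals of cohort 7b. In cohort 4 it measured 123, 2.88, 73.8 and 75.6 in the LD animals and 0, 2.02 and 75 in the BD animals. The lowest animal of cohort 7b thus lay among those of cohort 4, and the fitted difference was 8.89-fold with a 95% interval of 1.37 to 57.8 (limma adjusted p = 0.986). The 0 is that of the shallow BD replicate 1; without both shallow libraries the difference was 8.77-fold (1.47 to 52.3).

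SLC5A7, the choline transporter of these neurons, read 1002, 405, 1912 and 1317 in cohort 7b. In cohort 4 the lowest value was 39.7, the median 301 and the highest 429, so that 1 animal of cohort 7b, LD replicate 2, lay within the range of cohort 4. The difference was 4.44-fold (1.81 to 10.9, limma adjusted p = 0.986). SLC18A3, the vesicular transporter, did not overlap: 32.8 to 95.4 in cohort 7b and 0 to 21.1 in cohort 4. It lies under the mean of 50 normalized reads required of a named gene and was added after its values were seen.

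NGFR, a neurotrophin receptor that these neurons carry, was 71.1, 79.8, 886 and 771 in cohort 7b, so 2 of the 4 animals lay within the 0 to 119 of cohort 4. LHX8, a transcription factor of forebrain cholinergic neurons, ranged from 104 to 258 against 13.5 to 135. ISL1, another transcription factor that striatal neurons also use, ranged from 114 to 158 against 1.35 to 225 and overlapped widely. ACHE, which breaks acetylcholine down, ranged from 915 to 1389 against 410 to 1314 (1.54-fold, 0.984 to 2.41), the only tested gene of the list with an unadjusted p above 0.05.

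Summed over the 9 listed genes, the cohorts did not overlap: 2181, 2773, 4472 and 5260 normalized reads in cohort 7b against 483 to 2011 (median 1506) in cohort 4. CHAT, SLC18A3 and NGFR were all at 0 in the shallow BD replicate 1 and above 0 in every other library of the 11. The count depended on the BD animals. Without cohort 7b BD replicate 1, the only BD animal of its cohort, the fitted difference between cohorts rests on the LD animals. All 8 genes then stayed above 0, but 1 was at an unadjusted p under 0.05 and the median was 3.00-fold. In a fit of the LD animals alone 4 of the 8 were at that p, with the same median. Without the shallow libraries 7 of 8 were at that p, and the median was 5.24-fold.

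Animals outside the fit were set beside these values without a test. The 1 heavy drinker (HD) of cohort 7b measured 151 for CHAT and 998 for SLC5A7, and the 1 HD animal of cohort 4 measured 24.4 and 183; all 8 tested cholinergic genes were higher in the former. The 4 lighter drinkers of cohort 7a, the youngest cohort (4.18 years at induction), spread over both ranges and past them. CHAT was 606 in their BD animal and 43.7, 8.11 and 826 in their LD animals, and the summed level of the list ran from 1368 to 13171. For CHAT, 2 of these 4 animals lay above every animal of cohorts 4 and 7b and the other 2 within the range of cohort 4.

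**Figure D2:**
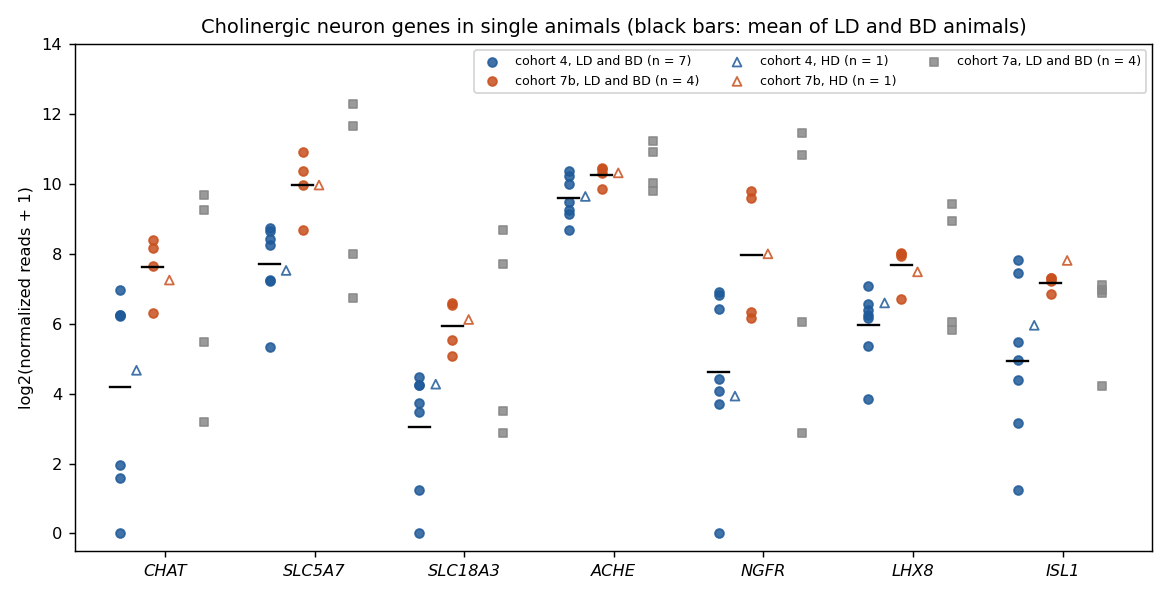
The y axis gives log2(normalized reads + 1) of 7 of the 8 tested cholinergic genes in single animals: filled circles are LD and BD animals of cohort 4 (blue, n = 7) and cohort 7b (orange, n = 4), open triangles their HD animals, which were not in the fit, and grey squares the lighter drinkers of cohort 7a. SLC18A3 does not overlap between the circles of both colours, and 2 of the 4 grey squares lie above all circles for CHAT, SLC5A7 and NGFR.

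The 10 leading genes that were higher in cohort 7b were taken by smallest p among genes with a mean of at least 50. Of these, 5 did not overlap between the cohorts, beside 0.313% of all genes tested. A choice by smallest p favours genes without overlap, so this count is no separate evidence. IQSEC3, an exchange factor for ARF GTPases at inhibitory synapses, measured 943, 1224, 942 and 1151 in cohort 7b and 479 to 897 (median 762) in cohort 4. All 4 animals lay above cohort 4, by 1.53-fold (1.20 to 1.95, limma adjusted p = 0.986). SEMA3F, a secreted axon guidance protein, measured 238, 192, 202 and 167 against 67.3 to 144 (median 118), with a difference of 1.81-fold (1.28 to 2.55). Its groups did not overlap, and the difference was 2.00-fold without the shallow libraries.

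FGF11, an intracellular member of the fibroblast growth factor family, ranged from 93.7 to 161 against 54.5 to 91.4. CBFA2T3, a transcriptional corepressor, ranged from 62.9 to 104 against 32.8 to 56.1. Neither gene overlapped, and the differences were 1.65-fold and 1.73-fold.

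C14orf105 had the largest fold of the 10. It measured 249, 431, 178 and 342 in cohort 7b, and in cohort 4 ranged from 7.03 over a median of 31.6 to 176. The groups did not overlap, by a narrow margin, and the difference was 5.43-fold (2.03 to 14.6). The HD animals were both low, at 9.26 in cohort 7b and 2.03 in cohort 4, so the HD animal of cohort 7b was far below the other 4 of its cohort.

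UST, a sulfotransferase that acts on chondroitin and dermatan sulfate, ranged from 263 to 485 against 231 to 281 (1.49-fold). ZIC1, a zinc finger transcription factor, ranged from 134 to 277 against 52.5 to 156 (2.07-fold). PRIMA1, which anchors acetylcholinesterase in the neuronal membrane, ranged from 68.5 to 202 against 19.5 to 92.0 (2.81-fold). All 3 overlapped between cohorts.

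These 3 genes also followed the cholinergic genes in cohort 7a. The 2 animals of cohort 7a with the highest CHAT measured 519 and 598 for UST, 435 and 651 for ZIC1, and 272 and 407 for PRIMA1. Its other 2 lighter drinkers measured at most 301 for UST, 105.5 for ZIC1 and 48.4 for PRIMA1. IQSEC3 showed no such split, with 996 and 1004 in the first pair and 976 and 737 in the second. The part of the cholinergic level in the differences of UST, ZIC1 and PRIMA1 was not tested.

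The 10 leading genes that were lower in cohort 7b differed by less, at 0.572 to 0.795 of cohort 4, and 3 of them did not overlap. They were picked in the same way, and 0.313% of all genes tested did not overlap in either direction. DDX26B, related to a subunit of the Integrator complex that processes small nuclear RNA, measured 319, 374, 351 and 370 in cohort 7b and 380 to 617 (median 519) in cohort 4. All 4 animals were below cohort 4, at 0.720 of its level (0.602 to 0.862, limma adjusted p = 0.986). C17orf67 ranged from 131 to 153 against 160 to 245, and ANKRD39, an ankyrin repeat protein, from 94.4 to 122 against 131 to 208.

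The other 7 overlapped. They include RHPN2 (0.728), OSBPL3, an oxysterol-binding protein relative (0.628), PLA2G4C, a phospholipase A2 (0.613), MRPS22 of the mitochondrial ribosome (0.795), PAMR1 (0.649), ASB5 (0.572) and MEMO1 (0.768). OSBPL3 ranged from 107 to 186 in cohort 7b and from 135 to 312 in cohort 4, and its ratio was 0.569 without the shallow libraries.

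All 20 leading genes were at an unadjusted p under 0.05 without the shallow libraries. In the LD animals alone (3 against 4) all 20 kept their direction, and 17 were under that p (10 higher and 7 lower). In every repeat that left out 1 animal, 7 of the 10 higher genes and 6 of the 10 lower genes stayed under it. These repeats reused the values by which the 20 genes were picked, so they are no independent test of them. The HD animals, which the fit did not use, differed in the fitted direction in 10 of the 10 higher genes and in 5 of the 10 lower genes. Over all genes tested the HD animals differed in the fitted direction in 62.8%, over the 331 genes in 87.0% and over the 40 genes without overlap in 82.5%. C17orf67, RHPN2, ANKRD39, ASB5 and MRPS22 were higher, not lower, in the HD animal of cohort 7b than in that of cohort 4.

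**Figure D3:**
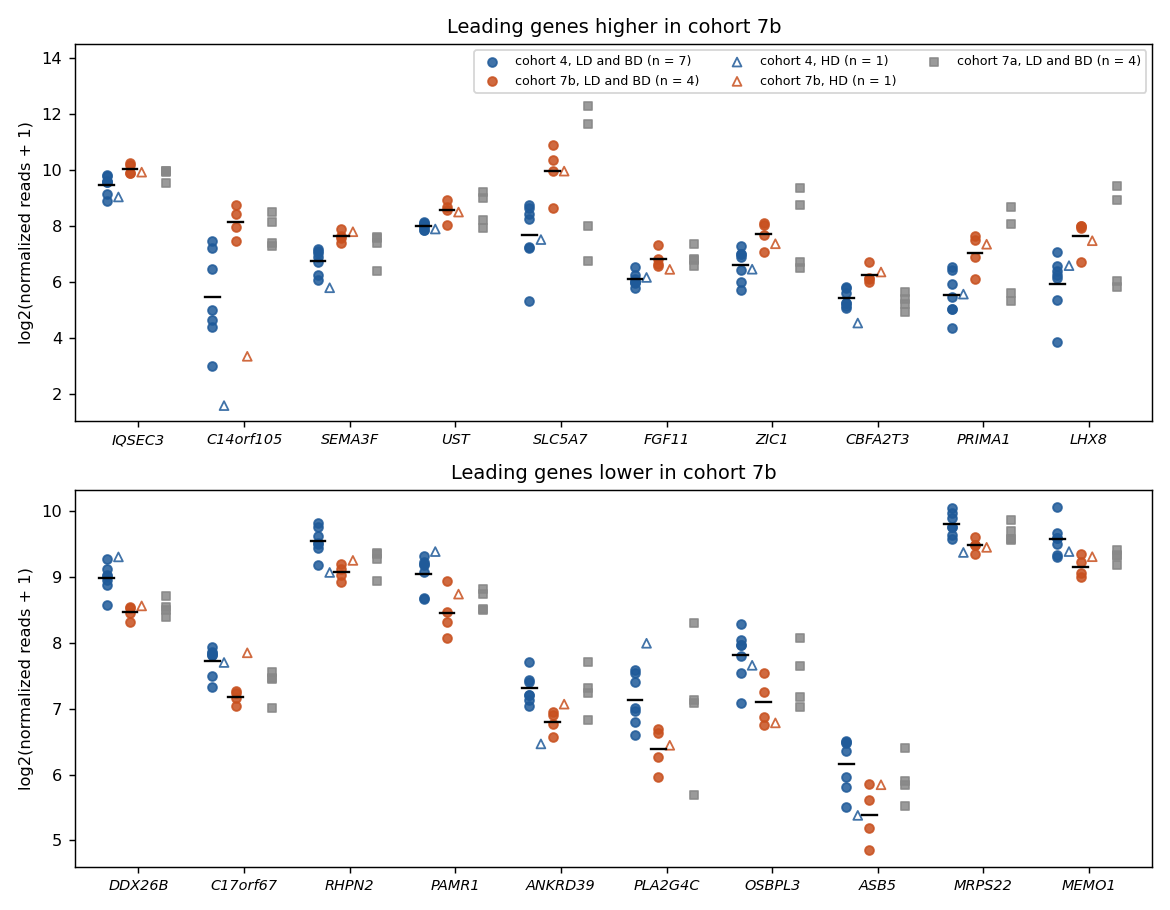
Single animals for the 10 leading genes in each direction, as log2(normalized reads + 1), with black bars at the mean of the LD and BD animals; triangles are the HD animals and grey squares the lighter drinkers of cohort 7a. The circles of both colours are apart for IQSEC3, SEMA3F and DDX26B, and both triangles of C14orf105 lie at the bottom.

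Markers of neighbouring tissue differed in level between the cohorts without passing the test. In the striatal medium spiny neuron list 12 of 13 genes were above 0, with a median log2 fold change of 0.72 and 3 genes at an unadjusted p under 0.05 (6 without the shallow libraries). Over all genes tested 2.59% were at that p, and 5.47% without the shallow libraries. DRD2, the dopamine receptor of indirect-pathway striatal neurons, measured 556, 108, 156 and 426 in cohort 7b against 22.9 to 271 (median 53), an overlap of 2 animals. ADCY5, the main striatal adenylate cyclase, ranged from 3597 to 9381 against 2266 to 5292 (1.58-fold), and RXRG, a retinoid receptor, from 438 to 657 against 238 to 628 (1.39-fold). The summed list ranged from 11942 to 41846 (median 15033) in cohort 7b and from 9526 to 19263 in cohort 4. In the mean log2 level of the tested genes, centred over the 11 libraries, cohort 7b LD replicate 1 stood apart at 1.65. The others of its cohort, at -0.15, 0.06 and 0.28, lay within the range of cohort 4 (-0.72 to 0.57).

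Cortical and basolateral glutamatergic markers leaned the other way, with 12 of 14 genes below 0, a median of -0.54 and none at an unadjusted p under 0.05. TBR1, a transcription factor of cortical projection neurons, spanned 2.45 to 278 in cohort 7b and 5.76 to 560 in cohort 4 and was thus as variable within as between cohorts. Summed levels ran from 26074 to 38411 and from 23426 to 59037. Of 12 GABAergic neuron genes 9 were above 0. SLC32A1, which loads GABA into vesicles, ranged from 1730 to 2350 against 625 to 2408 (1.78-fold, 1.14 to 2.77), and only cohort 4 LD replicate 2 reached the level of cohort 7b.

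That animal, cohort 4 LD replicate 2, was also the highest of cohort 4 for DRD2 (271), GRIN1 (9302), NOTCH3 (994) and PENK (20051). The part of tissue make-up in the differences between cohorts was not tested. With the myelin and glutamatergic scores of each library as further terms, 0 genes were called and 302 were at an unadjusted p under 0.05.

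The CeA genes named in all comparisons did not pass the test. CRH measured 81.0, 49.7, 71.2 and 74.4 in cohort 7b and 16 to 74.1 (median 46.4) in cohort 4, a difference of 1.53-fold with an interval of 0.921 to 2.53. The 16 is that of the shallow BD replicate 1; without both shallow libraries the difference was 1.502-fold with an interval of 1.098 to 2.05 (limma unadjusted p = 0.0162, adjusted p = 0.672). PENK, the enkephalin precursor, measured 32856, 4717, 10125 and 23264 against 1293 to 20051 (2.37-fold, 0.815 to 6.89). SST was 1.297-fold (0.849 to 1.98), and CRHR1, the receptor of CRH, was at 0.775 (0.478 to 1.26). PDYN (1.09), NPY (1.03) and DCX (1.05) changed sign under other settings.

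The stress genes FKBP5 (0.917) and NR3C1, the glucocorticoid receptor (0.984, 0.856 to 1.13), the astrocyte gene GFAP (1.20, 0.826 to 1.75), the myelin gene MBP (0.909, 0.701 to 1.18) and ALDH2, which removes acetaldehyde (0.975, 0.812 to 1.17), also lay near 1. NR3C1 and ALDH2 had the narrowest intervals of this group. The CeA neuropeptide list held 10 of 16 genes above 0 and none at an unadjusted p under 0.05. When both shallow libraries were left out, 5 were under that p, 2 higher, with CRH among them, and 3 lower: CRH, CARTPT, CCK, TAC3 and VIP. In that repeat 5.47% of all genes tested were under that p. Above 0 were also 18 of 26 genes of the CeA receptor list, with DRD2 and ISL1 at an unadjusted p under 0.05.

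Vascular and connective tissue genes were mostly higher in cohort 7b. In the list of choroid plexus, ependyma and meninges 14 of 15 genes were above 0, with a median of 0.64 and 4 at an unadjusted p under 0.05: COL1A1 and COL1A2 (fibrillar collagen), LUM and DCN (collagen-binding proteoglycans). Of 20 collagens and laminins 16 were above 0, 4 of them at that p: COL1A1, COL1A2, COL3A1 and COL6A2. COL1A1 and COL1A2 are thus counted in both lists. Over all genes tested 49.2% were above 0, and 1.92% were higher at that p. COL1A2 measured 272, 362, 333 and 306 in cohort 7b against 120 to 386 (median 159). A single animal of cohort 4, LD replicate 4, lay above the others of its cohort and above all of cohort 7b.

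COL3A1 was at 1.62-fold and COL6A2 at 2.19-fold. Without the shallow libraries COL1A1, COL3A1 and DCN were above an unadjusted p of 0.05, and 2 of the 4 collagens stayed under it. NOTCH3, a receptor of vascular mural cells, ranged from 790 to 1413 against 287 to 994 (1.82-fold). It was the only one of 19 endothelial and pericyte genes at that p, and 16 of the 19 were above 0. Blood genes were nearly absent: 10 of the list were in the table, 1 reached the level for testing, and S100A8 was at 0 in all 11 libraries.

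Lists of immunity, senescence, cell division, myelin, immature neurons and growth factors held few genes at an unadjusted p under 0.05. Over all genes tested 2.59% were at that p, so a count of 0 in lists this short is near that share. Age cannot be told apart from cohort in these lists. The lists of complement (18 genes tested), antigen presentation (11), interferon-induced genes (27), innate immune signalling (19), senescence and p53 targets (13) and cell division (16) held none with all 11 libraries. In the repeat without the shallow libraries, where 5.47% of all genes were at that p, 3 of 11 antigen presentation genes were lower at that p: B2M, the light chain of class I molecules, CD74, the invariant chain, and MAMU-DRA, a class II chain. The median log2 fold change of that list was then -0.26. Of the cell division list BIRC5, which encodes survivin, was then higher at that p, and the other 4 lists still held none. Of 20 myelin genes 10 were above and 10 below 0. Among 17 genes of immature neurons 13 were above 0, SOX11 at 1.39-fold (580 to 946 against 353 to 658) and CD24 at 1.66-fold. Among 17 genes of the growth hormone and insulin-like growth factor axis 13 were above 0, with IGFBP4, a binding protein, at 1.35-fold.

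Of 22 chromatin modifiers 18 were above 0, led by the deacetylase HDAC4 (1.24-fold) and the remodelling ATPase SMARCA4 (1.21-fold). Circadian clock genes had 13 of 16 above 0 and none at an unadjusted p under 0.05. Over all genes tested 49.2% were above 0.

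Genes of oxidative phosphorylation and of the mitochondrial and cytosolic ribosomes leaned lower in cohort 7b by small amounts. Of 25 nuclear genes of oxidative phosphorylation 22 were below 0 (median -0.10) and of 35 mitochondrial ribosomal proteins 31 were (median -0.09), with MRPS22 the only gene at an unadjusted p under 0.05. Of 39 cytosolic ribosomal proteins 28 were below 0 (median -0.03). Without the shallow libraries the counts were 24 of 25, 33 of 35 and 38 of 39, and the medians -0.19, -0.16 and -0.09. The genes lower at an unadjusted p under 0.05 then numbered 3 (ATP5F1, COX6C and NDUFA4), 4 (MRPS22, MRPL40, MRPS18A and MRPS35) and 2 (RPL32 and RPS20). Over all genes tested in that repeat 5.47% were at that p in either direction, and the count of cytosolic ribosomal proteins was near that share.

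Genes of short exon length leaned the same way: split into 5 equal classes by length, the shortest genes had a median log2 fold change of -0.05 and the longest of 0.04. The list of very long neuronal genes also leaned lower, with 15 of 20 below 0 (median -0.07). Of 14 pan-neuronal genes 11 were below 0 (median -0.12), and all 14 without the shallow libraries (median -0.25). The part of gene length in these lists was not tested.

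Some transmitter and enzyme genes were at an unadjusted p under 0.05, where 2.59% of all genes tested were at that p. GRIN1, the obligate NMDA receptor subunit, measured 10809, 10207, 7156 and 10398 against 4941 to 9302 (1.45-fold, 1.13 to 1.87), with 1 animal of cohort 7b inside the range of cohort 4. It was the only one of 21 glutamate receptor genes at an unadjusted p under 0.05. DAGLA, which makes the endocannabinoid 2-arachidonoylglycerol, was at 1.25-fold, NCAN, a brain proteoglycan, at 1.28-fold, and EGR1, an immediate early gene, at 1.39-fold. HSPA5, a chaperone of the endoplasmic reticulum, was at 1.23-fold and CD14, a microglial receptor, at 1.302-fold. DAGLA, NCAN, EGR1, HSPA5 and CD14 were each the only gene of their list at that p.

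Lower values were found for the glutathione transferases GSTK1 (379 to 462 against 468 to 593, no overlap, 0.834) and GSTA4 (0.773) and for the steroid-metabolizing enzyme AKR1C1 (0.752). The lists of GABA-A receptor subunits (11 genes), ethanol and acetaldehyde metabolism (10) and glucocorticoid response (16) held none at that p, with or without the shallow libraries. Without them RXRG, CD14, HSPA5, EGR1, SMARCA4, GSTK1 and AKR1C1 were no longer under it.

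**Figure D4:**
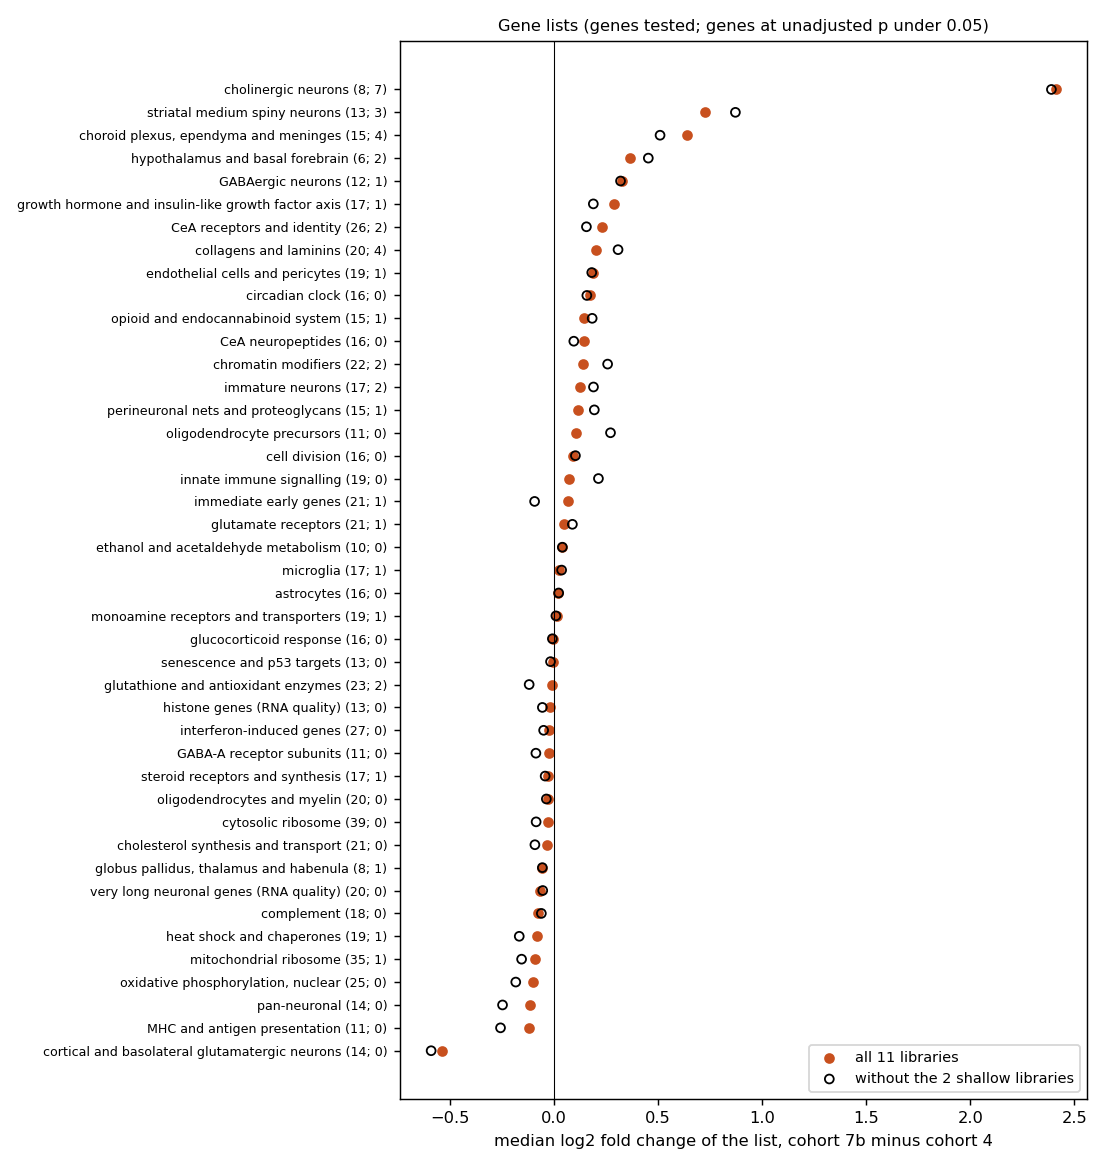
Median log2 fold change, cohort 7b minus cohort 4, of each gene list with at least 5 genes tested; the numbers in brackets are the genes tested and those at an unadjusted p under 0.05. Filled points use all 11 libraries and open points leave out the 2 shallow ones; the cholinergic list is at 2.41 and the cortical and basolateral glutamatergic list at -0.54.

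Exons gave the same count as genes. Of 156345 exons 107903 were tested and 0 (0%) passed (lowest limma adjusted p 0.9998), and 2983 were at an unadjusted p under 0.05. In 49 exons (0.0454%) the groups did not overlap and differed by at least 2-fold. Without the shallow libraries 0 exons passed. Leaving out single animals gave at most 2 exons past the threshold: 1 of C22orf28 without cohort 4 LD replicate 2, and 1 each of EIF4E and YWHAB without cohort 7b BD replicate 1.

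Relative exon use, the level of an exon against the other exons of its gene, differed by the diffSplice F test in 6 of 9453 genes (0.0635%). These were C22orf28 (adjusted p = 4.81e-10), TEX2 (3.74e-09), SRCIN1 (0.00201), EYA3 (0.00581), PREPL (0.0189) and FAM172A (0.0376). The F test gives all exons of a gene 1 spread between animals. With a spread of its own per exon, an analysis added after the data were seen, 0 genes passed (lowest limma adjusted p 0.999997, 208 genes at an unadjusted p under 0.05). None of the 6 genes differed as a whole at an unadjusted p under 0.05.

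In C22orf28, an older symbol of the RNA ligase RTCB that joins the cut ends of tRNA, the exon at chr15:74205192-74205416 carried the call. It read 12, 17, 13 and 16 in cohort 7b, and in cohort 4 it read 76, 23, 80 and 89 in the LD animals and 80, 76 and 79 in the BD animals. The groups did not overlap, and 6 of the 7 animals of cohort 4 lay between 76 and 89. Over all 28 libraries the exon fell into a low range (12 to 28) with 15 animals and a high range (57 to 93) with 13. Of the 17 animals outside the fit 10 were low, among them the HD animals of both cohorts at 16 (cohort 4) and 28 (cohort 7b).

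In TEX2 the exon at chr17:57601234-57601294 read 22, 18, 17 and 22 in cohort 7b. In cohort 4 it read 0 to 2 in 6 animals and 16 in LD replicate 4, with no overlap. Both HD animals were in the higher range, at 18 in cohort 4 and 16 in cohort 7b. In EYA3, a phosphatase and transcriptional coactivator, the exon at chr1:26780814-26780916 read 12 to 17 in cohort 7b, 0 or 1 in 6 animals of cohort 4 and 11 in its LD replicate 1. The HD animals read 2 and 1, both low. These are small values: 3 reads amount to up to 6.73 normalized reads outside the shallow BD replicate 1. In BD replicate 1 they amount to 24.1, above every cohort 7b value of both exons. Its reading of 0 therefore does not show either exon to be low.

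In SRCIN1, an inhibitor of SRC kinase signalling at synapses, the exon is 24 bases long (chr17:46271287-46271310). It read 3 to 8 in cohort 7b, 24 to 56 in 6 animals of cohort 4 and 4 in its LD replicate 2. The HD animals were the other way round, with 4 in cohort 4 and 43 in cohort 7b, and the other 15 animals read 3 to 12. High values were thus found in 7 of 28 animals, 6 of them lighter drinkers of cohort 4.

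In PREPL, a relative of prolyl endopeptidase, the exon at chr2a:45108951-45109110 read 50, 66 and 57 in the LD animals of cohort 7b and 528 in its BD animal. In cohort 4 it read 72 in LD replicate 2 and 521 to 866 in the other 6. The HD animals were again reversed, at 57 in cohort 4 and 512 in cohort 7b. In FAM172A the exon at chr5:90873198-90873386 read 24 to 35 in cohort 7b, and in cohort 4 it read 24 and 32 in 2 BD animals and 3 to 7 in the others; the HD animals read 2 and 21.

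FAM172A was the only one of the 6 genes whose HD animals differed in the fitted direction. In 5 of the 6 the leading exon lay at an end of its gene, each time the end with the highest coordinates. Of all exons tested in genes with 3 or more tested exons, 15.3% lay at either end of their gene. Coordinates are those of the exon table, for which no genome build was stated in the labels used here.

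The calls depended on the libraries. Without the shallow libraries 13 genes passed, 4 of them (C22orf28, TEX2, SRCIN1 and EYA3) among the 6. FAM172A then had an adjusted p of 0.0718 and PREPL of 0.571 by the diffSplice F test. Only C22orf28 and TEX2 passed in every repeat that left out 1 animal, where 2 to 10 genes passed. SRCIN1 did not pass without cohort 4 LD replicate 1 (0.0584 by diffSplice) or LD replicate 3 (0.0914), nor without cohort 7b LD replicate 1 (0.0993) or BD replicate 1 (1). EYA3 was lost when any 1 of 7 animals was left out, PREPL for any 1 of 6 and FAM172A for any 1 of 7.

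**Figure D5:**
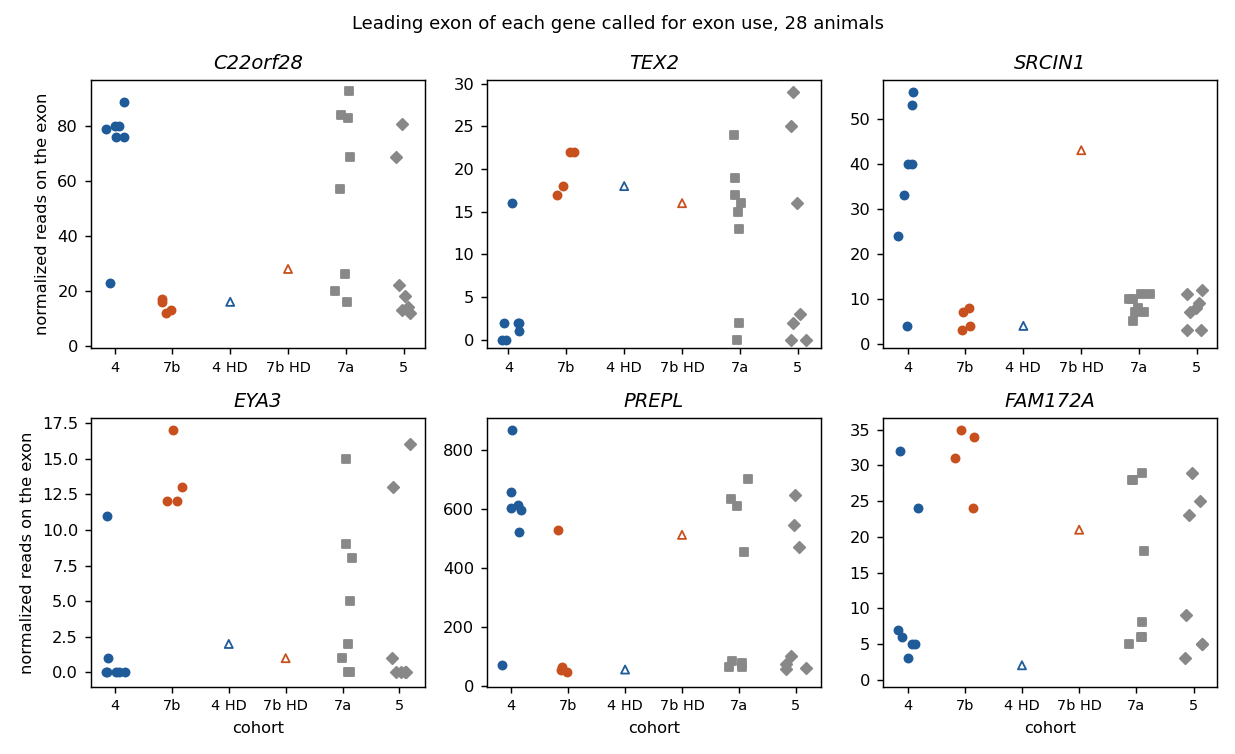
Normalized reads on the leading exon of each of the 6 genes called for exon use, by cohort; circles are LD and BD animals of cohorts 4 and 7b, open triangles their HD animals and grey symbols all animals of cohorts 7a and 5. For C22orf28 the circles of cohort 7b lie at 12 to 17 and both triangles are low; for SRCIN1 and PREPL the triangles are on opposite sides from the circles of their cohorts.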

How the data were processed

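RNA from the CeA block was sequenced from stranded, ribosomal RNA-depleted libraries, per the labels' protocols. The submitters' processing notes name CASAVA, FastQC, STAR 2.3.0e and edgeR in no order. Which genome build and annotation were used is not given in the sources used here. In the deposited gene table each value is a signal, the gene's exonic reads scaled by an upper-quartile factor. In the 11 columns of this comparison 100% of values, divided by the smallest, came out whole within 0.02, which gave back the reads. In the deposited exon table each value is a score, the same quantity rounded by the authors to whole numbers. Each table has 30 columns; 28 matched the labels and 2 were not used here.

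Values of at least 10 in at least 4 of the 11 libraries were tested on log2(value + 1) with limma 3.58.1 in R 4.3.3 (mean-variance trend, cohort and drinking category as terms, two-sided, Benjamini-Hochberg, threshold 0.05). Fold changes are on that scale, which understates those of low genes. Recovered reads were tested with edgeR 4.0.16 (quasi-likelihood) and DESeq2 1.42.0. limma's diffSplice F test compared exon use where 3 or more exons of a gene were tested. Every group is small, 1 library per animal, and p-values measure the spread between these animals.

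The members, the 44 gene lists and the tests were chosen with earlier results of these data known. Genes named by rule average 50 normalized reads or more over the 11 libraries: up to 15 per direction past the threshold, filled to 10 by smallest p, up to 4 per list at an unadjusted p under 0.05, 8 genes for exon use, and a fixed set of 14. Results for a few genes are not reported here. On simulated reads for this comparison (12713 genes), limma called 11.9% of 1.5-fold, 61.2% of 2-fold and 89.4% of 4-fold changes with 4 false calls. For exon use (9347 genes), diffSplice called 41.5% of single exons lowered 4-fold, each the highest exon of its gene, with 0 false calls. Changes in exons that are low in their gene, as in TEX2 and EYA3, were not simulated. All simulated exons had the same dispersion, so the simulation does not cover false calls in genes whose exons vary unequally between animals.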

Additional observations from a re-analysis of the deposited data

Results flagged for a closer look

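Single animals stood far from the others of their cohort in 7 of 126 sets of values (2 cohorts for each of 63 named genes), where chance alone marks about 1 in 20. In cohort 7b, LD replicate 2 was lowest for LHX8 at 104 (the next animal at 242) and highest for COL1A1 at 166 (the next at 92.0). LD replicate 1 was highest for FKBP5 at 309 (the next at 243), and LD replicate 3 was lowest for GRIN1 at 7160 (the next at 10200). In cohort 4, BD replicate 3 was highest for MBP at 6710 (the next at 4560), LD replicate 4 was highest for COL1A2 at 386 (the next at 202), and the shallow BD replicate 1 was highest for MEMO1 at 1070 (the next at 815).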

How the results depend on the processing

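All alternatives, with the exception of 2 single-animal repeats for exons, gave 0 called genes and exons. The number of genes at an unadjusted limma p under 0.05 (331) was 2054 with array weights and robust priors, 133 in LD animals alone, 695 without the 2 shallow libraries, 507 with cohort 7a in the fit, 797 with the HD animals added, 1317 with all 28 animals and 500 with log2 depth as a term. Leaving out 1 animal gave 144 to 869 such genes, 0 to 2 exons called and 2 to 10 genes called for exon use. Genes called for exon use (6) numbered 3 with a pseudocount of 8, 2 with a filter of 50, 13 without the shallow libraries, 11 with all 28 animals, 38 with the Simes test and 0 with a spread of its own per exon, the only alternative added after seeing the data.

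Among named genes, the log2 fold change turned sign in PDYN (-0.0310 with array weights), NPY (-0.0496 with edgeR, -0.0422 with DESeq2, -0.42 with array weights, -0.12 without the shallow libraries and -0.0461 with depth as a term) and DCX (-0.0264 with the HD animals, -0.0223 with all 28 animals and -0.0389 with the marker scores as terms). Without 1 animal, PDYN ranged from -0.17 to 0.35, NPY from -0.22 to 0.50, NR3C1 from -0.0856 to 0.0117, ALDH2 from -0.0918 to 0.00439 and DCX from -0.00773 to 0.17. The other 58 named genes kept their direction in every alternative that tested them. The cause of these shifts was not tested. Rescaling by the median of log ratios changed no direction among the named genes. No paired analysis was possible because the cohorts hold different animals and the labels give no replicate numbers. On simulated reads with 7 and 4 animals most 1.5-fold changes were missed.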

Other observations

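Of the 8 genes followed for exon use, MTMR4 and PTPRN did not pass (diffSplice adjusted p = 0.0888 for both). In MTMR4, a phosphoinositide phosphatase, a 39-base exon at chr17:34701744-34701782 read 10 to 15 in cohort 7b and 0 to 13 in cohort 4. In PTPRN, a protein of dense-core secretory vesicles, the exon at chr2b:107513042-107513155 read 79, 86 and 92 in 3 animals of cohort 7b and 209 in its LD replicate 1, against 143 to 202 in cohort 4. Over all 28 libraries the PTPRN exon was low (up to 94) in 12 animals and high (from 143) in 16, with 9 of the 17 animals outside the fit in the low range.

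The 3 highest cholinergic levels of the series were outside this comparison, all in very heavy drinkers. The summed list read 26104 and 23016 in VHD replicates 3 and 4 of cohort 5, whose other 2 very heavy drinkers read 2652 and 6072. It read 19427 in VHD replicate 1 of cohort 7a, where the other very heavy drinker read 824.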
